A study of Sus scrofa with 60 samples.

Results

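The 10 genes described here are markers of liver macrophages, taken as the rows of the deposited count table whose gene name was CLEC4F, MARCO, CD163, VSIG4, CD5L, C1QA, C1QB, CD68, TREM2, or GPNMB. All 10 were found among 30335 named genes, and all 10 were among the 16210 genes with enough reads to be tested. CLEC4F, MARCO, CD163, VSIG4, and CD5L were read as resident Kupffer cell markers, C1QA and C1QB as complement genes of tissue macrophages, CD68 as a marker of all macrophages, and TREM2 and GPNMB as scar-associated markers.

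The study asked whether the lipid given in parenteral nutrition (PN) alters liver injury when bile cannot leave the liver. Liver RNA came from 60 neonatal pigs at day 14, delivered by cesarean section slightly before term and given either sham surgery or bile duct ligation (BDL), in which the cystic and common bile ducts were tied off. The 12 ENT-sham and 10 ENT-BDL pigs were fed milk replacer by orogastric tube, the 10 SLE-sham and 11 SLE-BDL pigs received PN with the soy-based emulsion Intralipid (labelled IL), and the 9 MLE-sham and 8 MLE-BDL pigs received PN with the mixed emulsion SMOFlipid (labelled SL). All 6 groups carried a jugular catheter and began on PN, from which the ENT pigs were weaned, so ENT differed from SLE and MLE in the route of feeding as well as in its lipid. The pigs were born to sows of mixed Landrace and Hampshire breeds. In the 3 BDL groups bile flow was blocked completely by surgery, so these groups model obstruction and not PN alone, while the SLE-sham and MLE-sham pigs received PN without obstruction.

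Kupffer cells are the macrophages that live in the liver sinusoids, where they take up bacteria, old red cells, and debris from the blood through receptors such as CLEC4F, MARCO, CD163, and VSIG4. When the liver is injured, monocytes enter from the blood and become macrophages of another kind, which take up lipid and gather in scars, and TREM2 and GPNMB are known markers of these cells. Both sets of markers are often read side by side in injured liver. Neither set belongs to 1 cell type alone, since GPNMB and CD5L can also be made by other cells.

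Each library held 14471963 to 21376410 counted reads (median 17256485.5), and levels are given in CPM, the count as a share of the library size after scaling by the trimmed mean of M-values (TMM). Whole liver was sequenced, so fewer macrophages and less RNA per macrophage cannot be told apart. Each comparison used the quasi-likelihood test of edgeR over all 60 pigs, with p values adjusted by Benjamini-Hochberg over the 16210 genes, and a gene passed the test at an adjusted p under 0.05. Log2 fold changes are given with their standard error (SE), and intervals are 95% confidence intervals. ENT-sham replicate 2 and ENT-BDL replicate 1 had the lowest chi-square per degree of freedom over genes of 1770 library pairs, 1.91 against 16.1 for the pair that followed, although their labels put them in different groups. The main results that turn on either library are given with and without the pair. The labels also hold a 3-digit pig identifier number with 8 values, whose meaning is not given in the sources used here, and pairs of pigs from different groups that shared it had a median correlation of 0.129 after group means were subtracted, against -0.019 for other such pairs. ENT-sham pigs carried 6 of these numbers, ENT-BDL pigs 7, SLE-sham pigs 6, SLE-BDL pigs 5, and both MLE groups 4, so values within a number and from a fit with the number as a block are given where they bear on a result. Some groups shared few numbers: MLE-sham and ENT-sham 2, MLE-BDL and ENT-BDL 3, and MLE-BDL and SLE-BDL 2. Diet and number cannot be fully told apart in those comparisons. SLE-sham replicates 9 and 10 carry the same full identifier, and the labels do not settle whether they are 1 pig or 2. Their counts differ (chi-square per degree of freedom 34.2, where the median within groups was 53.4), so they are not 1 library, and they were counted as 2 pigs throughout. Leaving out replicate 9 or replicate 10 ended the CLEC4F call after BDL on SLE, and leaving out replicate 10 ended the MARCO and CD68 calls between SLE-sham and ENT-sham.

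All 6 groups expressed the resident markers. In ENT-sham pigs the mean level per kilobase of gene model was highest for C1QB (235 CPM per kilobase), CD5L (200), and C1QA (189), intermediate for CD163 (58.7), CLEC4F (51.1), and CD68 (37.4), and lower for GPNMB (17.4), VSIG4 (16.2), and MARCO (5.41). TREM2, at 0.121 CPM per kilobase, was the lowest of the 10. In MLE-BDL pigs, GPNMB reached 58.3 CPM per kilobase and so lay above CD163 (33.7), CLEC4F (21.7), and CD68 (35.8), while TREM2 stayed the lowest at 1.82. The genes lie on 9 chromosomes of the Sscrofa11.1 assembly, with C1QA (chromosome 6, 80586259-80589213) and C1QB (80601680-80606076) as neighbours. CLEC4F is on chromosome 3 (71683898-71696357), MARCO on 15 (24502935-24541286), CD163 on 5 (63300200-63334497), VSIG4 on X (52175601-52198635), and CD5L on 4 (92394535-92412146). CD68 is on chromosome 12 (52874754-52877256), TREM2 on 7 (36465921-36471509), and GPNMB on 9 (92037428-92071501).

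GPNMB, a membrane glycoprotein of lysosomes in lipid-laden macrophages, was low in 2 of the 6 groups and high in the other 4. It ranged from 29.7 to 123 CPM in ENT-sham pigs (median 43.3) and from 40.8 to 113 CPM in MLE-sham pigs (median 70.5). It lay between 116 and 283 CPM in ENT-BDL pigs (median 202) and between 138 and 233 CPM in MLE-BDL pigs (median 184). All 8 MLE-BDL pigs were above every MLE-sham pig, and 9 of 10 ENT-BDL pigs were above every ENT-sham pig, the exception being replicate 1 of the matching pair. SLE-sham pigs held 116 to 469 CPM (median 241) and SLE-BDL pigs 70.0 to 379 CPM (median 256). The SLE-sham range overlapped that of each ligated group, and 2 SLE-sham pigs, at 419 and 469 CPM, lay above every ligated pig.

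GPNMB was therefore higher after BDL on 2 diets. Its log2 fold change was 1.85 (SE 0.24, adjusted p = 2.12e-07, edgeR) on ENT, a ratio of 3.59 (95% interval 2.56 to 5.04), and 1.38 (SE 0.28, adjusted p = 0.00028) on MLE, a ratio of 2.60 (1.78 to 3.82). On SLE it was -0.10 (SE 0.24, adjusted p = 0.877), with an interval of the ratio from 0.663 to 1.31. Among identifier numbers shared by both groups, GPNMB was higher after BDL in 6 of 6 on ENT and 4 of 4 on MLE, and its SLE-BDL mean was below the SLE-sham mean in 4 of 4, by 0.01 to 0.83 on the log2 scale.

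GPNMB also differed between the sham groups. SLE-sham pigs had 4.58 times the level of ENT-sham pigs, 8 of 10 of them above every ENT-sham pig (log2 fold change 2.19, SE 0.25, adjusted p = 5.2e-10), and the difference lay between 1.97 and 2.45 in each of the 4 identifier numbers that both groups share. All 9 MLE-sham pigs were below every SLE-sham pig (log2 fold change -1.83, SE 0.27, adjusted p = 5.08e-05). Between MLE-sham and ENT-sham the log2 fold change was 0.37 (SE 0.25, adjusted p = 0.312).

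**Figure D1:**
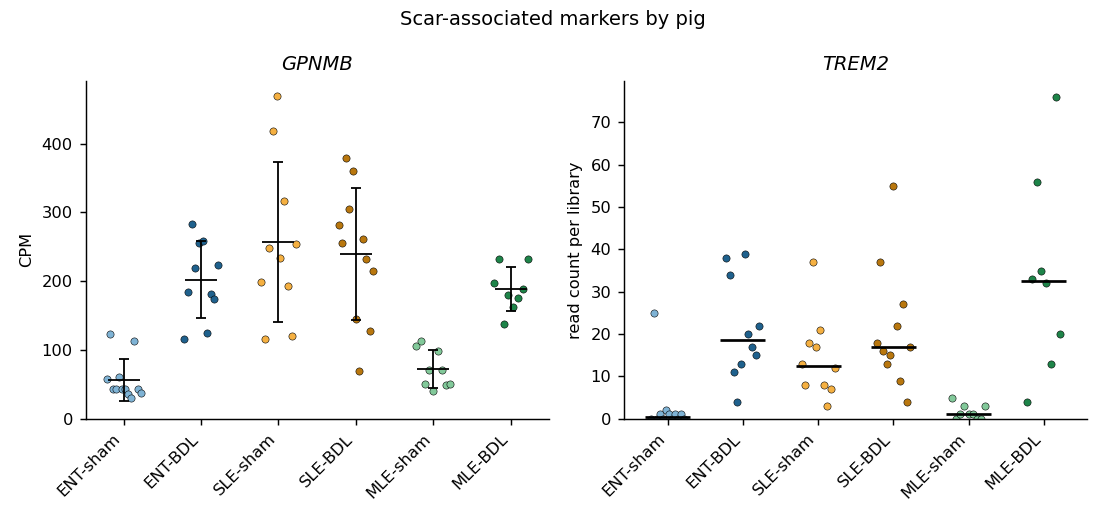
Level of GPNMB in CPM (left, with group mean and SD) and read count of TREM2 (right, with group median) in each of the 60 pigs by group. ENT-sham and MLE-sham pigs lie low for both genes, except ENT-sham replicate 2 with 25 TREM2 reads, while SLE-sham pigs (median 12.5 TREM2 reads) lie among the ligated groups.

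TREM2, a lipid receptor of recruited macrophages, showed the same split of the groups at far fewer reads. In ENT-sham pigs, 6 of 12 libraries held no TREM2 read and 11 of 12 held 3 or fewer, and the 1 exception, replicate 2 of the matching pair, held 25. MLE-sham libraries held 0 to 5 reads (median 1), with 8 of 9 at 3 or fewer. The other groups held more, with 4 to 39 reads in ENT-BDL (median 18.5), 3 to 37 in SLE-sham (median 12.5), 4 to 55 in SLE-BDL (median 17), and 4 to 76 in MLE-BDL (median 32.5). TREM2 entered the test on the strength of these 4 groups, so its differences from ENT-sham and MLE-sham were favoured by the filter on low counts.

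TREM2 was higher after BDL on ENT (log2 fold change 3.03, SE 0.53, adjusted p = 3.86e-05) and on MLE (4.08, SE 0.65, adjusted p = 1.09e-05). On SLE the log2 fold change was 0.50 (SE 0.47, adjusted p = 0.621). Summed over a group, ENT-BDL held 213 reads and ENT-sham 31, a ratio per effective library size of 8.14 (exact 95% counting interval 5.57 to 12.3). Without the matching pair the sums were 175 and 6 reads, the ratio was 34.7 (15.6 to 96.0), and the fitted log2 fold change 4.79 (adjusted p = 2.61e-09), so ENT-sham replicate 2 alone held most of the TREM2 reads of its group. MLE-BDL held 269 reads and MLE-sham 14, a ratio of 18 (10.5 to 33.3), and the SLE ratio was 1.44 (1.16 to 1.78). These intervals cover counting error only.

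Between sham groups, SLE-sham exceeded ENT-sham in TREM2 by a log2 fold change of 2.61 (SE 0.54, adjusted p = 0.000165), or 4.47 (adjusted p = 9.32e-09) without the matching pair. MLE-sham was below SLE-sham (-3.03, SE 0.65, adjusted p = 0.00953), where 9 of 10 SLE-sham pigs were above every MLE-sham pig. Between MLE-sham and ENT-sham TREM2 did not pass the test (-0.43, SE 0.72, adjusted p = 0.724), and its sign was not stable. Without ENT-sham replicate 2 the value was 1.43 (adjusted p = 0.167, edgeR). Apart from fits that left out 1 pig, the sign changed in 2 of 6 alternative fits. The ratio of summed reads was 0.679 (0.334 to 1.32) with all libraries and 3.13 (1.13 to 9.92, counting error only) without the matching pair, from 14 and 6 reads.

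MARCO, a scavenger receptor that binds bacteria, was the 1 member that passed the test in the same direction after BDL on all 3 diets. It held 2.63 to 16.3 CPM in ENT-sham (median 7.43) and 15.7 to 35.6 CPM in ENT-BDL (median 24.2). The SLE-sham range was 8.67 to 20.6 CPM (median 11.8) and the SLE-BDL range 8.88 to 49.8 CPM (median 23.4). MLE-sham pigs held 5.27 to 12.1 CPM (median 6.79) and MLE-BDL pigs 8.33 to 29.9 CPM (median 12.9). The groups overlapped in each comparison, with 8 of 10 ENT-BDL, 8 of 11 SLE-BDL, and 4 of 8 MLE-BDL pigs above every sham pig of their diet. The log2 fold changes were 1.48 (SE 0.24, adjusted p = 1.11e-05) on ENT, 1.00 (SE 0.25, adjusted p = 0.0108) on SLE, and 1.11 (SE 0.28, adjusted p = 0.00329) on MLE. Within identifier numbers MARCO was higher after BDL in 6 of 6, 3 of 4, and 3 of 4 numbers.

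CLEC4F, a lectin that in the liver is found on Kupffer cells, moved the other way and varied widely among pigs. ENT-sham pigs held 45 to 230 CPM (median 102) and ENT-BDL pigs 22.9 to 145 CPM (median 46.6). SLE-sham pigs spanned 17.2 to 136 CPM (median 68.8) and SLE-BDL pigs 12.1 to 81.9 CPM (median 29.4). MLE-sham pigs lay between 51.9 and 129 CPM (median 86.2) and MLE-BDL pigs between 24.1 and 91.8 CPM (median 33.8). CLEC4F was lower after BDL on SLE (log2 fold change -1.13, SE 0.34, adjusted p = 0.0401), but the log2 fold changes of -0.84 (SE 0.33, adjusted p = 0.0725) on ENT and -0.90 (SE 0.38, adjusted p = 0.102) on MLE did not pass the test. The SLE call passed in 9 of 21 fits that left out 1 of its pigs (edgeR adjusted p from 0.0105 to 0.102), and was lost without SLE-sham replicate 9 or without replicate 10. On ENT CLEC4F passed without ENT-sham replicate 2 or without ENT-BDL replicate 3, but not without both libraries of the matching pair. With the identifier number as a block all 3 passed, at -0.75 (adjusted p = 0.0269) on ENT, -1.32 (0.00317) on SLE, and -0.86 (0.0282) on MLE, and the BDL mean was below the sham mean in 6 of 6, 4 of 4, and 4 of 4 numbers.

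CD5L, a protein that tissue macrophages secrete and that curbs inflammation and lipid synthesis, was the most abundant resident marker. It was lower after BDL on ENT, where sham pigs held 228 to 681 CPM (median 533) and ligated pigs 231 to 558 CPM (median 293), with a log2 fold change of -0.66 (SE 0.17, adjusted p = 0.00404). The lowest ENT-sham value belonged to replicate 2 of the matching pair, and the other 11 pigs held at least 474 CPM. CD5L was also lower on MLE, where sham pigs held up to 601 CPM (median 416) and ligated pigs 183 to 421 CPM (median 289). Its log2 fold change there was -0.66 (SE 0.19, adjusted p = 0.0131), with 7 of 8 MLE-BDL pigs below every MLE-sham pig. The SLE values of 291 to 636 CPM (median 484) and 165 to 548 CPM (median 306) gave a log2 fold change of -0.46 (SE 0.17, adjusted p = 0.113). Within identifier numbers the BDL mean was below the sham mean in 6 of 6 on ENT, 4 of 4 on SLE, and 4 of 4 on MLE.

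CD163, which clears hemoglobin bound to haptoglobin, and VSIG4, a complement receptor, passed the test in none of the BDL comparisons. CD163 means were 228 ± 65.7 CPM (SD, n = 12) in ENT-sham and 176 ± 68.7 (n = 10) in ENT-BDL, 173 ± 68.3 (n = 10) and 169 ± 42.3 (n = 11) on SLE, and 164 ± 52.5 (n = 9) and 131 ± 38.0 (n = 8) on MLE. Its log2 fold changes were -0.38 on ENT (95% interval -0.78 to 0.03), -0.03 on SLE (-0.44 to 0.38), and -0.33 on MLE (-0.79 to 0.13). VSIG4 means lay between 29.3 ± 4.85 CPM in MLE-BDL (n = 8) and 40.9 ± 7.33 CPM in ENT-sham (n = 12), and its log2 fold changes were -0.15 (-0.41 to 0.10), 0.09 (-0.17 to 0.36), and -0.07 (-0.36 to 0.23) on ENT, SLE, and MLE. The intervals reach down to -0.79 for CD163 and -0.41 for VSIG4.

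C1QA and C1QB, chains of the molecule that starts the classical complement pathway, ran closely together. C1QA was lower after BDL on ENT, from 163 to 369 CPM (median 288) to 136 to 294 CPM (median 206), with a log2 fold change of -0.48 (SE 0.15, adjusted p = 0.0232). It was lower on MLE as well, from at least 174 CPM (median 244) in sham to 134 to 247 CPM (median 160) in ligated pigs, with -0.60 (SE 0.17, adjusted p = 0.0132) and 6 of 8 ligated pigs below every sham pig. On SLE the medians of 249 and 162 CPM gave -0.32 (SE 0.16, adjusted p = 0.263). The ENT call was lost without ENT-BDL replicate 4 or without replicate 7, with adjusted p values up to 0.0535. C1QB gave -0.36 (SE 0.14, adjusted p = 0.0689), -0.21 (SE 0.14, adjusted p = 0.449), and -0.44 (SE 0.16, adjusted p = 0.0513) on ENT, SLE, and MLE, and the MLE value passed with DESeq2 (adjusted p = 0.0475) and with the identifier number as a block (0.0322). Apart from fits that left out 1 pig, C1QB passed in 1 of 8 alternative fits on ENT and in 4 of 7 on MLE.

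CD68, a lysosomal protein of all macrophages, had group means between 42.9 ± 10.3 CPM in ENT-BDL (n = 10) and 56.7 ± 8.94 CPM in SLE-sham (n = 10). Its log2 fold change after BDL was -0.10 on ENT (95% interval -0.31 to 0.12), -0.30 on SLE (-0.52 to -0.08, adjusted p = 0.107), and -0.08 on MLE (-0.32 to 0.17), and none passed the test. On ENT and MLE, where MARCO, TREM2, and GPNMB were at least 2 times as high after BDL, the CD68 intervals reached no further than 0.32 on the log2 scale.

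**Figure D2:**
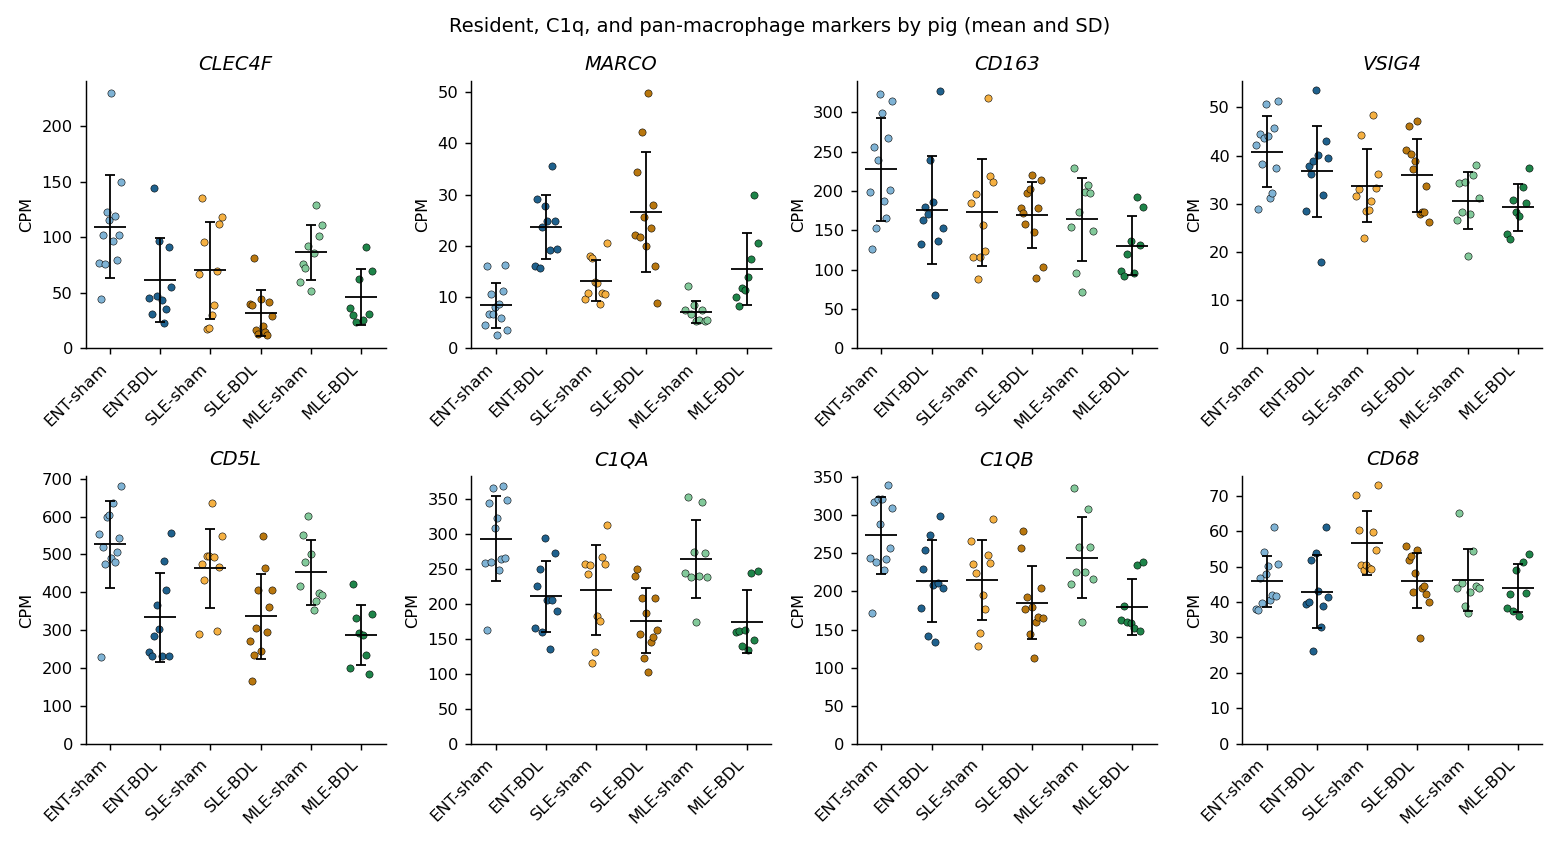
Level in CPM of the 5 resident markers, the C1q chains, and CD68 in each pig by group, with group mean and SD. MARCO is the 1 gene of these 8 with higher means in each BDL group (23.6, 26.6, and 15.4 CPM) than in the sham group of the same diet (8.42, 13.2, and 7.14 CPM).

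Counted by comparison, 5 of the 10 members passed the test after BDL on ENT, 3 higher and 2 lower, where 17.4% of all tested genes passed. On MLE it was again 3 higher and 2 lower, against 14.4% of all genes. TREM2, favoured by the filter on low counts, is among the higher members on both diets. The same caution applies to its part in the sham and interaction counts below. On SLE, 2 members passed, MARCO higher and CLEC4F lower, against 4.54%. With a fold change above 2 also required, 3 members remained on ENT (background 3.41%), 2 on SLE (1.47%), and 3 on MLE (3.73%). MARCO was among them on each diet, with GPNMB and TREM2 on ENT and MLE and CLEC4F on SLE. The median log2 fold change of the 10 members was -0.26, -0.16, and -0.20 on ENT, SLE, and MLE, beside medians of 0.00, 0.00, and -0.01 over all tested genes.

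**Figure D3:**
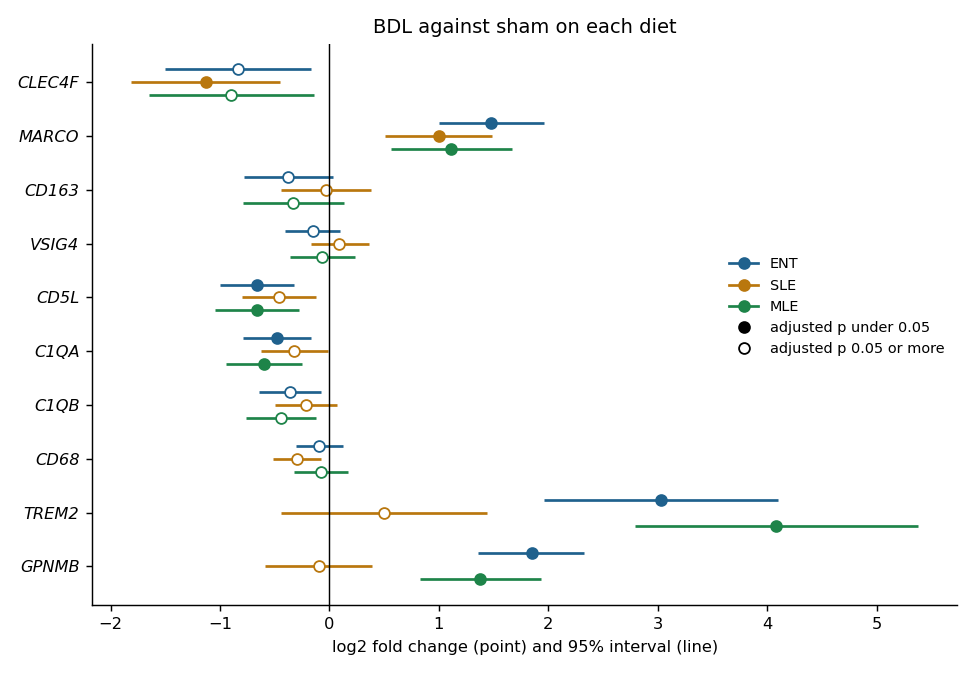
Log2 fold change of BDL against sham for each member on each diet, with its 95% interval, from the edgeR fit over 60 pigs. Filled points passed the test. The intervals of TREM2 and GPNMB lie above 0 on ENT and MLE and span 0 on SLE.

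The response to BDL was also compared between diets by the interaction of diet and surgery. GPNMB responded less on SLE than on ENT (-1.95, SE 0.34, adjusted p = 0.000718), and so did TREM2 (-2.53, SE 0.71, adjusted p = 0.0396), making 2 of 10 members against 2.28% of all genes. The TREM2 call passed in 23 of 43 fits that left out 1 pig, and was -4.28 (adjusted p = 5.92e-05) without the matching pair. TREM2 responded more on MLE than on SLE (3.58, SE 0.80, adjusted p = 0.0251), the 1 member past this test against 0.278% of all genes, but with the identifier number as a block the value was 3.27 (adjusted p = 0.0512), and the call was lost without SLE-sham replicate 4 or without MLE-BDL replicate 7 (adjusted p up to 0.0639). GPNMB gave 1.48 (SE 0.37, adjusted p = 0.0517) for MLE against SLE, which passed with DESeq2 (0.0117) and with the block (0.0125). Between MLE and ENT, 0 members passed in edgeR or DESeq2, 0 had an unadjusted p under 0.05, and 0.0802% of all genes passed. The SLE-sham group enters both interactions that passed, so they are not independent of each other.

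Among ligated pigs, 1 member passed the test between diets. CLEC4F was lower in SLE-BDL than in ENT-BDL (log2 fold change -0.93, SE 0.34, adjusted p = 0.0433), the 1 member past the test where 19.3% of all genes passed, and no member also passed a fold of 2 (3.12%). That call passed in 11 of 21 fits that left out 1 pig, and was -1.15 (adjusted p = 0.0013) with the identifier number as a block, where the SLE-BDL mean was below the ENT-BDL mean in 5 of 5 numbers. Between MLE-BDL and ENT-BDL, 0 members passed in edgeR and 0 in DESeq2, although 2, MARCO and VSIG4, had an unadjusted p under 0.05, while 16.5% of all genes passed, or 3.20% with the fold. Between MLE-BDL and SLE-BDL the counts were again 0, 0, and the same 2 genes, with 0.95% and 0.395% of all genes. The GPNMB log2 fold changes were 0.25 (95% interval -0.25 to 0.74) for SLE-BDL against ENT-BDL, -0.10 (-0.63 to 0.43) for MLE-BDL against ENT-BDL, and -0.35 (-0.87 to 0.18) for MLE-BDL against SLE-BDL.

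Without ligation, SLE and ENT differed in 5 members. GPNMB, TREM2, MARCO (0.65, SE 0.24, adjusted p = 0.038), and CD68 (0.31, SE 0.11, adjusted p = 0.0273) were higher in SLE-sham than in ENT-sham, and C1QA (-0.42, SE 0.15, adjusted p = 0.0351) was lower. This compares with 27.5% of all genes past the test, and the 2 members past a fold of 2, GPNMB and TREM2, compare with 5.22%. MARCO passed in 13 of 22 fits that left out 1 pig, C1QA in 14, and CD68 in 20, while GPNMB and TREM2 passed in all 22. C1QA did not pass with the identifier number as a block (adjusted p = 0.0632). C1QB gave -0.35 (SE 0.14, adjusted p = 0.0585) and passed without the matching pair (-0.40, adjusted p = 0.0265).

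Between MLE-sham and the other sham groups, 3 members passed. VSIG4 alone passed between MLE-sham and ENT-sham (-0.41, SE 0.13, adjusted p = 0.0201) against 21.1% of all genes, and with the identifier number as a block it was -0.30 (adjusted p = 0.156). It passed in 20 of 21 fits that left out 1 pig, the exception being MLE-sham replicate 5 (adjusted p = 0.0613), and no member passed a fold of 2 (3.71%). CD5L gave -0.22 (SE 0.17, adjusted p = 0.396) between MLE-sham and ENT-sham and -0.19 (SE 0.17, adjusted p = 0.448) between SLE-sham and ENT-sham. With the identifier number as a block both passed, at -0.53 (adjusted p = 0.0384) and -0.48 (adjusted p = 0.0202), and within numbers CD5L was below ENT-sham in 2 of 2 and 4 of 4. GPNMB and TREM2 were both lower in MLE-sham than in SLE-sham, with a fold above 2, against 0.944% of all genes past the test and 0.45% past the fold as well. MARCO, at 7.14 ± 2.21 CPM in MLE-sham (n = 9) and 13.2 ± 4.09 CPM in SLE-sham (n = 10), gave -0.89 (SE 0.26, adjusted p = 0.084), which passed with DESeq2 (0.0367). The comparisons above share their groups: ENT-sham is the control for ENT-BDL and for both PN sham groups, and SLE-sham for SLE-BDL.

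**Figure D4:**
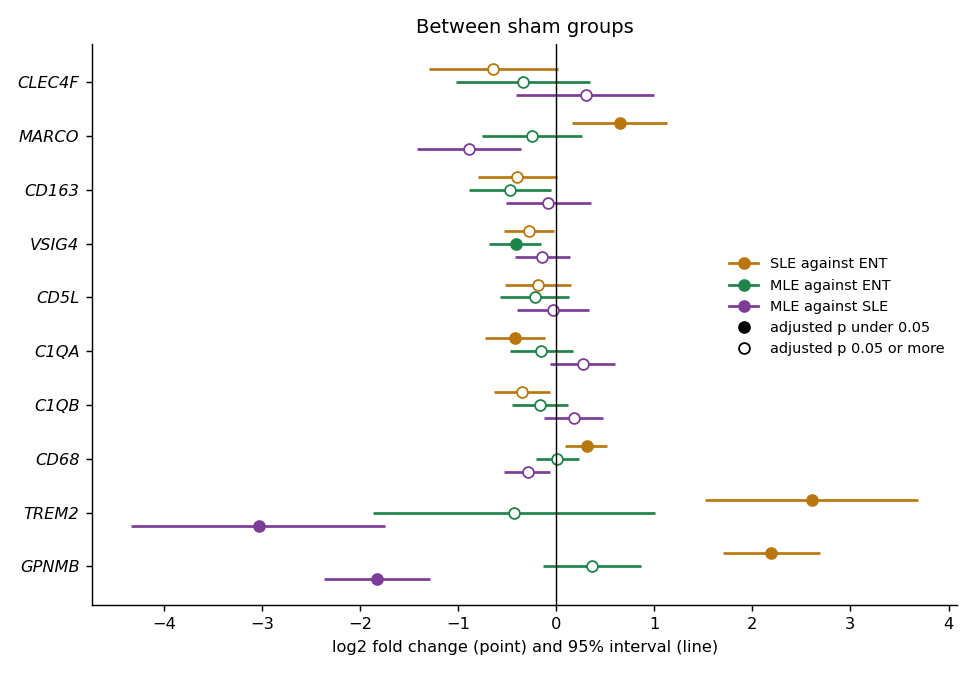
Log2 fold change of each member between sham groups, with its 95% interval, from the edgeR fit over 60 pigs. Filled points passed the test. GPNMB and TREM2 lie high for SLE against ENT (2.19 and 2.61), and low for MLE against SLE (-1.83 and -3.03). For MLE against ENT they lie at 0.37 and -0.43 with intervals that span 0, and TREM2 turns to 1.43 without ENT-sham replicate 2.

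In the order of group means, 6 of the 50 neighbouring pairs (5 for each gene) differed by more than the larger of their SDs. GPNMB ran from SLE-sham (257 ± 116 CPM, n = 10) through SLE-BDL, ENT-BDL, and MLE-BDL (188 ± 32.6, n = 8) to MLE-sham (72.4 ± 27.2, n = 9) and ENT-sham (56.1 ± 30.3, n = 12), with the single step beyond the SD between MLE-BDL and MLE-sham. For TREM2 the step lay between SLE-sham (0.847 ± 0.525 CPM, n = 10) and ENT-sham (0.118 ± 0.301, n = 12). MARCO had steps between ENT-BDL and MLE-BDL and between SLE-sham and ENT-sham, CD5L between MLE-sham and SLE-BDL, and CD68 between SLE-sham and MLE-sham. CLEC4F (highest in ENT-sham, lowest in SLE-BDL), CD163, VSIG4, C1QA, and C1QB (highest in ENT-sham, lowest in MLE-BDL) had no such step.

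The resident and the scar-associated sets were then set against each other as the mean log2 CPM of the 5 resident genes minus that of TREM2 and GPNMB, a description without a test. It was 4.79 ± 0.83 (SD, n = 12) in ENT-sham and 4.19 ± 0.50 (n = 9) in MLE-sham. It was 2.33 ± 0.47 (n = 10) in ENT-BDL, 2.33 ± 0.91 (n = 10) in SLE-sham, 2.05 ± 0.57 (n = 11) in SLE-BDL, and 1.78 ± 0.62 (n = 8) in MLE-BDL. The scar-associated mean ran from 1.55 in ENT-sham to 4.06 in MLE-BDL, while the resident mean ran from 6.34 in ENT-sham to 5.83 in MLE-BDL. The resident mean joins genes that went opposite ways after BDL. On ENT the log2 fold changes were 1.48 for MARCO, -0.84 for CLEC4F, -0.66 for CD5L, -0.38 for CD163, and -0.15 for VSIG4. Of these, MARCO and CD5L passed the test. ENT-sham replicate 2 had a difference of 2.25, against 4.79 for its group, and the ENT-sham mean was 5.02 without the matching pair.

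**Figure D5:**
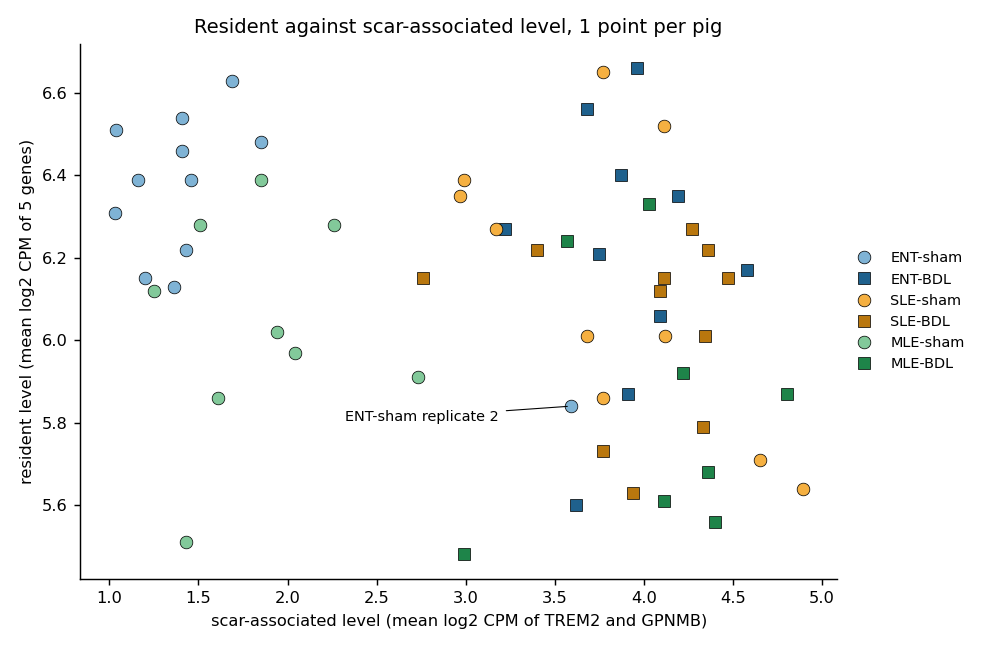
Resident level (mean log2 CPM of 5 genes) against scar-associated level (mean log2 CPM of TREM2 and GPNMB), 1 point per pig, circles for sham and squares for BDL. ENT-sham and MLE-sham pigs (mean scar-associated level 1.55 and 1.85) lie to the left of the other 4 groups (means 3.81 to 4.06), except ENT-sham replicate 2 at 3.59. No clear gap divides the pigs, with MLE-sham replicate 1 at 2.73 and SLE-BDL replicate 10 at 2.76.

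Members were also compared with each other across the 60 pigs after group means had been subtracted. These correlations are descriptions, since the pigs share groups, identifier numbers, and scaling. CLEC4F, CD163, VSIG4, C1QA, C1QB, and CD68 moved together, with Pearson r from 0.56 (CLEC4F and CD68) to 0.97 (C1QA and C1QB). CD5L stood apart, at r -0.19 to -0.27 with these 6 genes, and its closest genes were ALB (albumin, r 0.76), HAGH (0.76), and ADHFE1 (0.75), all expressed in hepatocytes. MARCO ran with none of the members above r 0.30, and its closest gene was FLT3, a receptor of dendritic cell precursors, at r 0.51. TREM2 and GPNMB correlated at r 0.16 within groups (Spearman rho 0.05), although both genes split the groups in the same way.

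SIGLEC1, a sialic acid receptor of resident macrophages, was closest to CLEC4F (r 0.87), while CD163 and VSIG4 (r 0.83) and C1QA and C1QB, all members, were closest to each other. C1QC, the other C1q chain, followed next for C1QA (r 0.95), and ITGB2, a leukocyte integrin chain, followed CD68 (r 0.83). GPNMB ran with ACP5, an acid phosphatase of osteoclasts and macrophages (r 0.80), and LGALS3, galectin-3 (r 0.73). The closest gene to TREM2 was COL6A3, a collagen chain (r 0.71), which fell to r 0.62 without the 2 pigs farthest from the TREM2 median.

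Further genes known from scar- and lipid-associated macrophages were mostly higher after BDL on ENT and MLE. Of 11 tested, 7 were higher and 1 lower after BDL on ENT, 7 higher and 1 lower on MLE, and 2 higher on SLE, beside 17.4%, 14.4%, and 4.54% of all genes that passed in either direction. LGALS3 was higher on ENT (log2 fold change 3.45, SE 0.45, adjusted p = 1.81e-07, or 4.59 without the matching pair), as was SPP1, osteopontin (2.16, SE 0.28, adjusted p = 1.91e-07). On MLE, LGALS3 (3.45, SE 0.52, adjusted p = 4.74e-06) and the lipoprotein lipase LPL (3.77, SE 0.66, adjusted p = 5.61e-05) were higher. On SLE the 2 were ATP6V0D2, a proton pump subunit (0.96, SE 0.29, adjusted p = 0.0365), and CD63, a tetraspanin (0.27, SE 0.08, adjusted p = 0.0401), and with the identifier number as a block none of the 11 passed, in either direction, while DESeq2 called 2. The genes that were lower were LIPA, a lysosomal lipase, on ENT, and APOE, a lipid carrier that hepatocytes also make, on MLE, both named after their values were seen. MMP12, the remaining gene of the list, had too few reads to be tested.

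The sham groups differed in this list too. In SLE-sham against ENT-sham, 7 of the 11 were higher and 0 lower, and in MLE-sham against SLE-sham 0 were higher and 5 lower, beside 27.5% and 0.944% of all genes. LGALS3 held 1.43 ± 2.52 CPM (SD, n = 12) in ENT-sham, 23.9 ± 20.4 (n = 10) in SLE-sham, and 1.65 ± 0.796 (n = 9) in MLE-sham, and SPP1 held 19.7 ± 17.2, 112 ± 41.1, and 29.9 ± 7.18 CPM. ENT-sham replicate 2 of the matching pair held the highest LGALS3 level of its group, 9.36 CPM, and the ENT-sham mean without it was 0.713 ± 0.339 CPM (SD, n = 11) for LGALS3 and 15.0 ± 5.74 CPM for SPP1. The SLE-sham excess over ENT-sham was 3.96 (adjusted p = 9.4e-10) for LGALS3, 2.50 (8.4e-10) for SPP1, and 4.37 (2.23e-08) for LPL, 3 genes picked for these comparisons after their values were seen. Without the matching pair these values were 5.03 (adjusted p = 7.47e-14), 2.90 (3.44e-13), and 4.85 (9.32e-09). The median log2 fold change of the 11 genes was 0.51 for SLE-sham against ENT-sham and -0.49 for MLE-sham against SLE-sham, beside -0.01 and 0.00 over all tested genes. Several of these genes are also expressed by bile duct and other liver cells.

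Of 12 other resident Kupffer cell genes tested, 2 were lower after BDL on ENT, 1 on SLE, and 5 on MLE, and 0 were higher, beside 17.4%, 4.54%, and 14.4% of all genes that passed in either direction. The counts on ENT and SLE are near that background. NR1H3, the lipid-sensing receptor LXR alpha, was lower on each diet, at -0.26 (SE 0.07, adjusted p = 0.0042) on ENT, -0.24 (SE 0.07, adjusted p = 0.0328) on SLE, and -0.41 (SE 0.08, adjusted p = 0.000105) on MLE. SLC40A1, the iron exporter ferroportin, was lower on MLE (-1.03, SE 0.14, edgeR adjusted p = 1.26e-06), where means were 979 ± 208 CPM in MLE-sham and 481 ± 92.5 CPM in MLE-BDL. The other 3 on MLE, named after their values were seen, were the third C1q chain C1QC, the heme oxygenase HMOX1, and the transcription factor SPIC. NR1H3 and SLC40A1 are expressed by other liver cells as well. Without the matching pair, 4 of the 12 were lower on ENT, where 21% of all genes passed in the same fit.

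Of 12 further pan-macrophage genes, 1 was higher and 2 lower after BDL on ENT, and 2 were higher and 1 lower on MLE, beside 17.4% and 14.4% of all genes. With so few genes these shares are close to the background. The scavenger receptor MSR1 was higher (0.41, SE 0.15, adjusted p = 0.0441 on ENT, and 0.60, SE 0.17, adjusted p = 0.00789 on MLE), and CD14, which binds endotoxin, was lower (-0.41, SE 0.12, adjusted p = 0.0105, and -0.55, SE 0.13, adjusted p = 0.00279). The others that passed were ADGRE1, an adhesion receptor of macrophages, lower on ENT, and LAPTM5, a lysosomal protein of blood cells, higher on MLE, both named after their values were seen. On SLE, edgeR and DESeq2 called 0 of the 12, and 1 had an unadjusted p under 0.05.

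Of 8 genes of recruited monocytes, 3 were higher after BDL on ENT, 2 on SLE, and 4 on MLE, with 0 lower, beside the same 17.4%, 4.54%, and 14.4% of all genes. VCAN, a matrix proteoglycan made by monocytes and fibroblasts, was higher on ENT (1.31, SE 0.30, adjusted p = 0.00136), on SLE (1.43, SE 0.31, adjusted p = 0.00411), and on MLE (1.90, SE 0.34, adjusted p = 8.28e-05). The chemokine receptor CCR2 was higher on ENT (0.80, SE 0.22, adjusted p = 0.00796) and MLE (1.38, SE 0.25, adjusted p = 8.63e-05), and ficolin FCN1 on SLE (1.27, SE 0.33, adjusted p = 0.0142). Lysozyme, LYZ, on ENT and MLE, and FCN1 on MLE made up the rest, named after their values were seen. LYZ on ENT gave 1.52 (adjusted p = 0.0224), or 2.17 (0.000386) without the matching pair. Of 5 tested growth factors and chemokines that draw or maintain macrophages, CCL2, the ligand of CCR2, was higher on ENT (0.87, SE 0.26, adjusted p = 0.0162) and MLE (1.11, SE 0.30, adjusted p = 0.00786), with the chemokine CX3CL1 on ENT (0.97, SE 0.31, adjusted p = 0.0244) and CSF1, the growth factor of macrophages, on MLE (0.79, SE 0.20, adjusted p = 0.00422). On SLE, edgeR and DESeq2 called 0 of these 5, with 1 at an unadjusted p under 0.05. CX3CR1, the receptor of CX3CL1 on monocytes and resident macrophages, was lower on MLE (-1.19, SE 0.35, adjusted p = 0.0159), and was named after its value was seen. CSF2 had too few reads to be tested.

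Some markers of other liver cells also differed after BDL, and their part in the results above was not tested. Their counts stand beside 17.4%, 4.54%, and 14.4% of all genes that passed on ENT, SLE, and MLE, and 1 call among 5 or 6 markers on ENT or MLE is at that background. Of 6 cholangiocyte markers, 5 were higher after BDL on ENT, 1 on SLE, and 6 on MLE. Their summed level per pig was 31.4 to 438 CPM in ENT-sham (median 47.6), 155 to 419 in ENT-BDL (192), 48.3 to 113 in SLE-sham (88.6), 106 to 240 in SLE-BDL (173), 48.4 to 78.6 in MLE-sham (65.3), and 134 to 229 in MLE-BDL (181). The highest ENT-sham pig was replicate 2 and the highest ENT-BDL pig replicate 1, the matching pair, and without them the ranges were 31.4 to 54.9 CPM (median 46.8) and 155 to 417 CPM (median 187). All 6 cholangiocyte markers were then higher after BDL on ENT, where 21% of all genes passed. The summed recruited monocyte genes had medians of 18.2, 43.0, 33.7, 61.1, 18.5, and 67.3 CPM in the same order of groups. Between SLE-sham and ENT-sham, edgeR called 0 of these 8 genes and DESeq2 1, with 3 at an unadjusted p under 0.05, beside 27.5% of all genes. Without the matching pair 2 were higher in SLE-sham (29.2% of all genes), and with the identifier number as a block 4 (27% of all genes). Between MLE-sham and SLE-sham both tools called 0 of the 8, with 2 at an unadjusted p under 0.05. Of 6 hepatocyte markers, 1 was higher and 2 lower on ENT and 3 were lower on MLE, with ALB, the gene closest to CD5L, at -0.83 (SE 0.15, adjusted p = 7.58e-05) on ENT. The summed hepatocyte markers had medians of 97300, 79600, 91900, 88700, 96600, and 69700 CPM.

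In the remaining cell types, of 6 sinusoidal endothelial markers, 2 were lower on ENT and 2 on MLE, with the lectin CLEC4G lower on both (-0.69, SE 0.19, adjusted p = 0.00665, and -1.04, SE 0.22, adjusted p = 0.000452). Of 6 stellate cell markers, 1 was higher and 1 lower on ENT, 1 higher on SLE, and 2 higher and 1 lower on MLE, including the collagen gene COL3A1 on ENT (0.79, SE 0.20, adjusted p = 0.00318) and MLE (0.98, SE 0.23, adjusted p = 0.00152). Of 5 tested neutrophil markers, 1 was higher on each diet, the cytokine receptor CSF3R on ENT and MLE and myeloperoxidase, MPO, on SLE. Of 6 proliferation markers, 4 were higher on ENT and 0 on MLE, where 5 had an unadjusted p under 0.05 and DESeq2 called 0. Of 5 tested B and plasma cell markers and 6 erythroid markers, 1 each was lower on MLE. T and NK cell markers gave 0 calls by edgeR and DESeq2 on each diet, with 1, 4, and 0 of 6 at an unadjusted p under 0.05 on ENT, SLE, and MLE. On SLE, edgeR and DESeq2 also called 0 hepatocyte, sinusoidal endothelial, proliferation, B and plasma cell, and erythroid markers, with 3, 1, 0, 2, and 0 at an unadjusted p under 0.05. Every marker of these other cell types that was tested had reads in each of the 6 groups.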

How the data were processed

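Poly-A RNA from whole liver of 60 pigs was sequenced. The authors deposited a table of read counts per gene, not normalized, which per the submitters' processing notes were made with HISAT2 2.0.5, StringTie 1.3.3, and featureCounts 1.5.0-p3 on Sscrofa11.1. Counting options, including strand, are not given in the sources used here. The 24 of 30359 features without a gene name (0.00842% to 0.0407% of reads) were left out of library sizes and tests.

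Counts were fitted with the robust quasi-likelihood model of edgeR 4.0.16 in R 4.3.3 over all 6 groups, with TMM scaling and the filterByExpr filter, for 9 group comparisons and 3 interactions. Log2 CPM used a prior count of 2. A read count of 3 or fewer was read as the floor. Alternatives were DESeq2 1.42.0, only the compared groups, relative log expression scaling, other filters, a replicate block, an identifier number block, and leaving out single pigs or the matching pair. Leaving out either library of that pair alone, and the ratio of summed TREM2 counts, were chosen after seeing the data. The edgeR step was tested on simulated data. Pigs of a group are separate animals by their labels, except where an identifier is shared.

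The members and lists were chosen with earlier results of these data known. Besides the 10 members, the text names, of 14 further lists, at most the 2 genes with the smallest adjusted p per list and BDL comparison, and the genes closest to each member by Pearson r. Any gene named beyond this is said to be so. The values of 1 list gene that met this rule are not reported here. Figures were drawn with matplotlib 3.10.9.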

Additional observations from a re-analysis of the deposited data

Results flagged for a closer look

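Of 40 sets of 1 member in 1 group of 4 to 10 pigs, 1 held a pig far from the rest, where chance gives about 1 in 20. MLE-sham replicate 2 had 12.1 CPM of MARCO, the nearest pig 8.49 CPM, and the gap was 0.529 of the range of the group. Without this pig the MARCO difference of MLE-sham from SLE-sham passed the test (adjusted p = 0.0386, edgeR).

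The response to BDL differed between diets by the interaction test for GPNMB (-1.95 for SLE against ENT) and for TREM2 (-2.53 for SLE against ENT, and 3.58 for MLE against SLE). All 3 differences involve the high SLE-sham level of these genes, and among ligated pigs neither gene passed the test between diets.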

How the results depend on the processing

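All 24 member results past the test kept their direction in each alternative that could be fitted, single pigs left out included, and 15 of them stayed past the adjusted p threshold in each. Of the other 96, 82 passed in none of these, 5 passed only when 1 pig was left out, and 14 changed sign in an alternative other than leaving out 1 pig. Requiring a fold above 2 left 3 members after BDL on ENT, 3 on MLE, 0 between SLE-BDL and ENT-BDL, 2 between SLE-sham and ENT-sham, and 0 between MLE-sham and ENT-sham. Fitting only the compared groups, or using no filter, left 1 member on SLE, 0 between SLE-BDL and ENT-BDL, and 1 in the interaction of SLE and ENT. With only the compared groups, TREM2 had too few reads to be tested after BDL on MLE and between each pair of sham groups. At least 10 counts in every pig left out TREM2, with 1 member between MLE-sham and SLE-sham and 1 in the interaction of SLE and ENT. DESeq2 gave 2 members in the interaction of MLE and SLE. A prior count of 0.5 moved the resident minus scar-associated level of MLE-sham to 4.75. Leaving out 1 pig gave 4 to 7 members on ENT, 1 to 2 on SLE, 5 to 6 on MLE, 0 to 1 between SLE-BDL and ENT-BDL, 0 to 1 between MLE-BDL and ENT-BDL, 3 to 7 between SLE-sham and ENT-sham, 0 to 1 between MLE-sham and ENT-sham, 1 to 2 for the interaction of SLE and ENT, and 0 to 2 for that of MLE and SLE. The cause of these changes was not tested.

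Samples of other groups with the same replicate number had correlations of -0.232 to 0.381 (median -0.017), so the number was not read as a pairing. With it as a replicate block, 1 member passed on SLE and 0 between SLE-BDL and ENT-BDL.

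Over all genes, the calls on SLE were 736, or 420 with only the compared groups, and those between SLE-BDL and ENT-BDL 3134 or 1948. Calls between MLE-BDL and SLE-BDL were 154, 297 with DESeq2, 19 with the compared groups, and 17 with the identifier number block. Calls between MLE-sham and SLE-sham were 153, 274 with DESeq2, and 232 with the compared groups. The interactions gave 369 for SLE and ENT (242 with the compared groups, 726 without the matching pair), 13 for MLE and ENT (11 to 72), and 45 for MLE and SLE (30 to 118). TREM2 rests on few reads, and its size in ENT-sham on 1 library.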
